A study of Mus musculus with 4 samples.

Results

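Adipoq, Lep, Retn, Cfd, Slc2a4, Adrb3, Aqp7, Pck1, Thrsp and Adig are 10 genes known as targets of PPARγ in fat cells, and their loci were read in PPARγ binding data from alveolar macrophages (AMs). They are 10 of the 20923 protein-coding genes with a curated RefSeq transcription start site (TSS). They were chosen by name, with earlier results of these data known, and kept whether or not a peak lay near them. AMs of WT mice (C57BL/6J, 9 wk old by the study's methods) were collected by bronchoalveolar lavage and sorted by flow cytometry. Binding was profiled by HT-ChIPmentation, a chromatin immunoprecipitation in which sequencing adapters are added by a transposase on the beads. The 2 PPARγ libraries each gave a list of peaks in mm10 coordinates, and 2 input libraries, made without antibody, entered as the control of the peak calls. The labels do not say whether both libraries came from separate mice, so differences between them may be technical. All libraries were of 1 condition, so no test between groups was made and every count below is a description.

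PPARγ is a nuclear receptor that binds DNA together with RXR, typically at a DR1, a direct repeat of the half-site AGGTCA with a single base between the copies. In fat cells it drives differentiation and the genes of lipid storage and of hormone secretion. In AMs it is needed for maturation and for the handling of surfactant lipid. A peak is a place where immunoprecipitated DNA exceeded input. It is not a measure of transcription, and the peak lists hold no expression values for these genes.

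Library 1 listed 83787 peaks (median fold enrichment over input 4.44) and library 2 listed 28535 (median 5.07), all at a q-value below 0.05. A peak list holds no read counts, so no counting error can be given for single peaks. The study's sequencing metrics list more aligned read pairs for library 1 than for library 2, and the part of depth in the longer list of library 1 was not tested. Merging peaks that overlapped by at least 1 bp gave 20233 regions with peaks of both libraries, called regions from here on. Each region was assigned to the gene whose TSS was nearest its centre. All 10 markers of AMs that were looked up held a region, against 2 of 10 markers of lung epithelium and 31.6% of all protein-coding genes. Both marker lists were chosen with earlier results of these data known.

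Of the 10 genes, 1 (Retn) held a region, against 31.6% of all protein-coding genes. In library 1 alone 4 of 10 held a peak (Retn, Adipoq, Slc2a4 and Pck1), against 60.6% of all genes. In library 2 alone 1 of 10 held a peak, again Retn, against 34.9%. Adipoq, Slc2a4 and Pck1 thus had peaks of library 1 and none of library 2, a pattern found at 26% of all genes. The other 6, Lep, Cfd, Adrb3, Aqp7, Thrsp and Adig, had no peak of either library nearest to their TSS, as had 38.8% of all genes. Without library 2 the count of genes with binding would be 4, and without library 1 it would be 1.

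**Figure D1:**
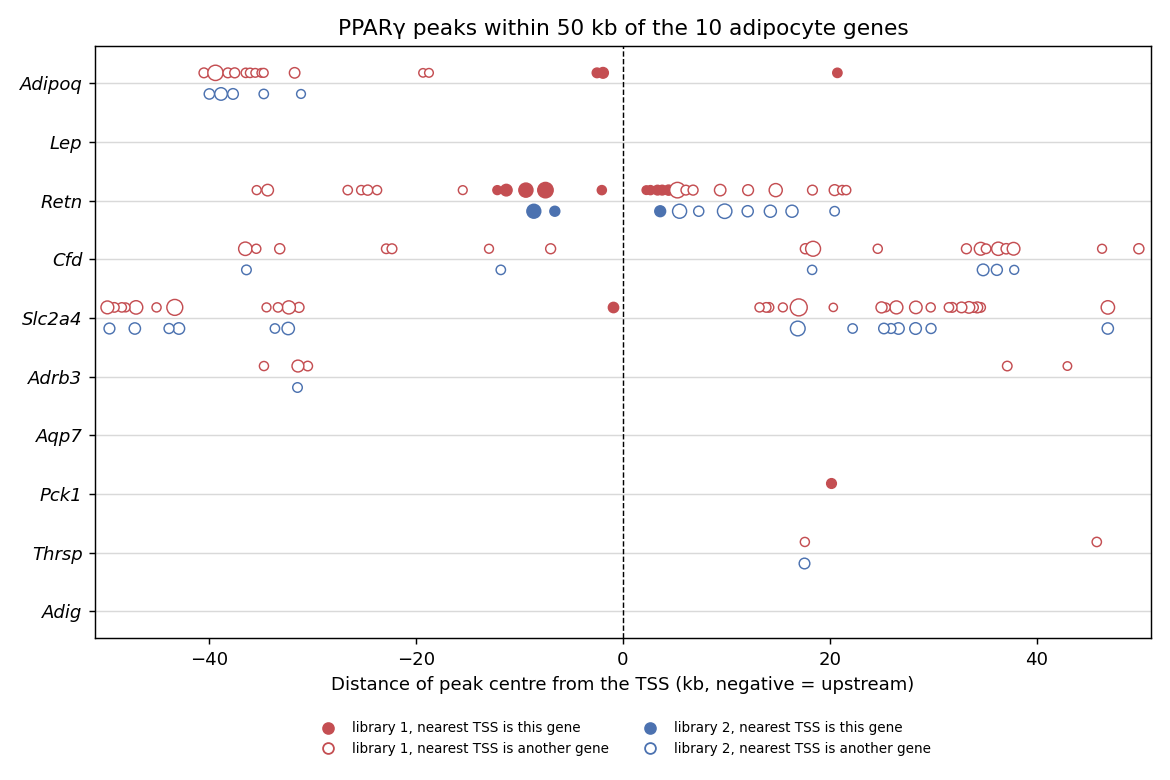
Peaks of library 1 (red) and library 2 (blue) within 50 kb of the TSS of each of the 10 genes, one gene to a row, with the distance of the peak centre in kb on the x axis and circle size growing with fold enrichment. Filled circles are peaks whose nearest TSS is that gene; filled blue circles stand in the Retn row only, and the rows of Lep, Aqp7 and Adig are empty.

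The stretch of genome nearer to the TSSs of the 10 genes than to any other was 38.7 kb in the median, against 48.9 kb over all genes. It ran from 11.3 kb at Cfd and 14.2 kb at Slc2a4 to 166 kb at Lep. The part of stretch length in the counts was not tested. Their stretches held 4.19 regions per Mb, against 7.68 per Mb over all genes, and the 2 regions behind that value were both at Retn. For library 1 peaks the density was 31.4 per Mb, against 31.8 per Mb over all genes, and without Retn it was 10.9 per Mb. For library 2 peaks it was 6.29 per Mb, against 10.8 per Mb.

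Among the adipokines, the hormones that fat cells secrete, Retn was the gene with the most binding. Retn (NCBI gene 57264, chr8:3655770-3659818, plus strand) encodes resistin, which opposes insulin action in mice. It took 10 of the 15 library 1 peaks and all 3 library 2 peaks of the 10 genes. Of these, 4 library 1 peaks overlapped peaks of library 2.

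The stronger Retn region, chr8:3645528-3649352, was centred at -8.33 kb in the intergenic stretch between Stxbp2 and Retn. It was 3825 bp wide, wider than 98.5% of regions. Library 1 had a peak at -9.37 kb with fold enrichment 12.7 and a peak at -7.48 kb with fold enrichment 15.7. Library 2 had a peak at -8.60 kb with fold enrichment 12.3 and a peak at -6.57 kb with fold enrichment 5.07. Both libraries therefore placed high enrichment over the same stretch. The strongest peaks had -log10 q of 46.3 in library 1 and 27.8 in library 2, and their summits lay 77 bp apart. By the lower of its percentiles of fold enrichment in both libraries, the region ranked 305 of 20233, within the top 1.51%. The TSS of Stxbp2, which encodes a protein of granule exocytosis, was the next nearest at 16.3 kb.

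The other Retn region, chr8:3658960-3659668, was weaker and lay at +3.54 kb, in an intron of the longer Retn transcript. It was 709 bp wide, with a strongest fold enrichment of 4.74 in library 1 and 6.49 in library 2, and ranked 8578. Its library 2 summit lay 34 bp from the summit of a library 1 peak of fold enrichment 4.64. The nearest TSS after that of Retn was that of Mcemp1, a membrane protein gene of mast cells and macrophages, 6.45 kb from the centre.

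The sequences under these summits are shown because they are the only places at the 10 genes where both libraries agree on a summit to within 100 bp. They are the plus strand of GRCm38, chr8:3648390-3648620 for the upstream region and chr8:3659072-3659272 for the intronic region, and capitals mark motif matches (TTGCNNAA for C/EBP and GAGGAAGT for PU.1 in the upstream region, GAGGAAGT on the minus strand and TGANTCA for AP-1 in the intronic region).
Retn upstream region: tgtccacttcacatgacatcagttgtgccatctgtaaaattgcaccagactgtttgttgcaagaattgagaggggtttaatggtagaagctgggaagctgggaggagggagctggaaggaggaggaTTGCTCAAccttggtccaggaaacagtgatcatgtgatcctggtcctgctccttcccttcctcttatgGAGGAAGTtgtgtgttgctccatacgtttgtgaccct
Retn intronic region: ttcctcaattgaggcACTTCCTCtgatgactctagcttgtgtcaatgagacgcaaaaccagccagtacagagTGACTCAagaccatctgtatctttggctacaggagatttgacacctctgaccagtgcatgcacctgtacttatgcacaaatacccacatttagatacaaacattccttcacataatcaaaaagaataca

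Each window was searched on both strands for a DR1 (AGGTCANAGGTCA with at most 2 mismatches), a half-site (AGGTCA, also part of the DR1), PU.1 (GAGGAAGT), AP-1 (TGANTCA), RUNX (TGTGGTT) and C/EBP (TTGCNNAA). Distances of matches are from the summit to the centre of the match. At the upstream region TTGCTCAA lay at -27 bp and GAGGAAGT at 41 bp from the library 1 summit. Of all regions, 15.1% had a C/EBP match and 6.83% a PU.1 match in the window around the library 1 summit (100 bp to each side). No DR1-like match lay in the printed stretch. The nearest within the region, AAGTCACAGGCCA with 2 mismatches, lay at -916 bp from the library 1 summit within the same peak. A DR1-like match within 100 bp of the summit was found in 4.57% of regions, so its absence was the common case under this definition. In the weaker library 2 peak at -6.57 kb, a half-site lay 13 bp from the summit, a match that 14.4% of library 2 peaks hold in the same window. At the intronic region TGACTCA lay at -31 bp from the library 1 summit and at -65 bp from the library 2 summit, against AP-1 matches in 8.06% of library 1 peaks and 8.88% of library 2 peaks. The PU.1 match there lay at -87 bp from the same library 1 summit, against PU.1 matches in 4.10% of library 1 peaks. Between 34.8% and 69.6% of the bases of the 3 peaks in the intronic region were repeat-masked in the reference.

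The remaining 6 library 1 peaks of Retn had no overlapping library 2 peak. The strongest of them lay at -11.3 kb with fold enrichment 7.70. The others had fold enrichments between 3.12 and 5.33 and lay at -12.1 kb in an exon of Stxbp2, at -2.03 kb, at +2.27 kb in a Retn exon, at +2.67 kb and at +4.42 kb. The peak at -12.1 kb held ACGTCAGATGTCA on the minus strand, a DR1-like match with 2 mismatches, at -45 bp from its summit. It was the only DR1-like match inside a peak of the 10 genes and within 100 bp of its summit, and 3.40% of all library 1 peaks had one in that window. The peak at +4.42 kb held a half-site at -46 bp, as did 12.8% of library 1 peaks in that window. No peak of either library covered the Retn TSS. Just beyond the midpoint to Mcemp1, at +5.48 kb from the Retn TSS, stood a further region with a library 1 peak of fold enrichment 16.0 and a library 2 peak of 12.6. It was nearer to the Mcemp1 TSS and was counted there. Within 50 kb of the Retn TSS lay 7 regions, 27 library 1 peaks and 10 library 2 peaks. Apart from the 2 Retn regions, these regions were nearest to Mcemp1, Fcor or Trappc5.

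**Figure D2:**
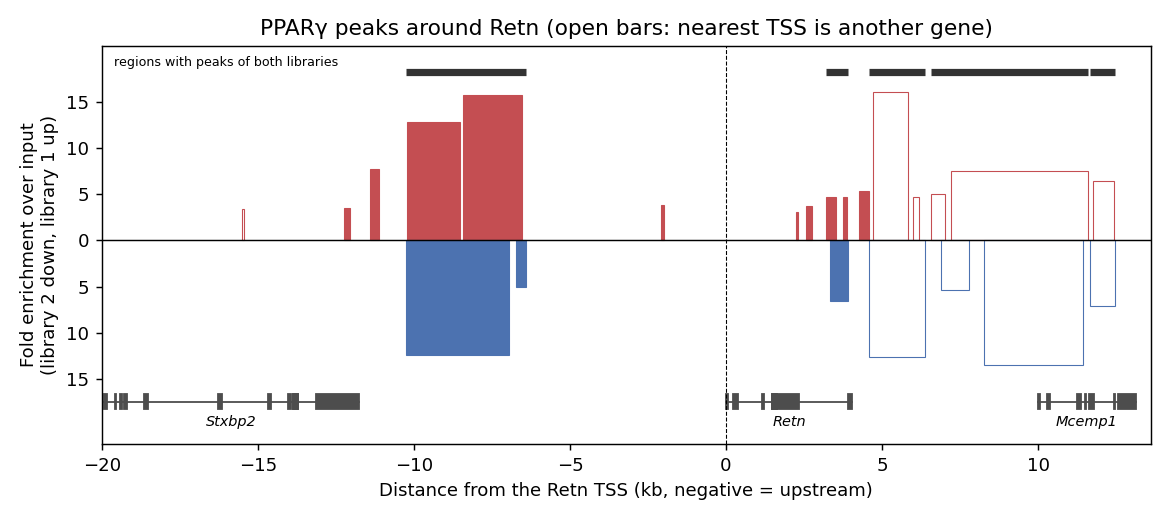
Fold enrichment over input of library 1 peaks (upward bars) and library 2 peaks (downward bars) against distance from the Retn TSS in kb, with exons of Stxbp2, Retn and Mcemp1 below and regions of both libraries as black bars on top. The tallest filled bars stand at -9.37 and -7.48 kb for library 1 and at -8.60 kb for library 2; open bars are peaks nearer to another gene's TSS.

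Adipoq (NCBI gene 11450, chr16:23146536-23157968, plus strand) encodes adiponectin, the insulin-sensitising hormone of fat cells. It had 3 library 1 peaks and no library 2 peak. They lay at -2.50 kb with fold enrichment 4.56, at -1.92 kb with 6.22 and at +20.7 kb with 4.15, all intergenic. The nearest library 2 summit was 28.6 kb or more from each of them. The nearest region was 34.7 kb upstream in an exon of Eif4a2, which encodes a translation initiation helicase, with fold enrichment of 3.49 in library 1 and 4.24 in library 2.

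The peak at -1.92 kb, chr16:23144379-23144859, covered the only enhancer that RefSeq annotates within 50 kb of any of the 10 genes. That element, the adiponectin distal enhancer at chr16:23144387-23144549, is listed with 2 binding sites that it needs for its function, chr16:23144462-23144501 and chr16:23144522-23144561. The library 1 summit, 23144548, fell inside the second of these sites. Of 1015 RefSeq enhancers, 8.87% overlapped a library 1 peak and 5.12% a library 2 peak. The annotated element is shown because it is the one annotated regulatory element of the 10 genes that a peak covered. It is the plus strand of GRCm38, chr16:23144387-23144561, with both annotated binding sites in capitals.
Adipoq distal enhancer: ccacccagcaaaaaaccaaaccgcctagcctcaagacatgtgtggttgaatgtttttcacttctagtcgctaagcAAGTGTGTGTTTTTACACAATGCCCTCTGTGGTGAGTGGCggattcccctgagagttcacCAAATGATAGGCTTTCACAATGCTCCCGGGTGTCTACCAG

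Neither a DR1-like match nor a half-site was found in this peak. It held 3 RUNX matches (TGTGGTT), of which the nearest was centred 34 bp from the summit, and TTGCACAA, a C/EBP match, at 64 bp. In the same window around the summit, 6.65% of library 1 peaks had a RUNX match and 11.8% a C/EBP match. The peak ranked 15311 of 83787 by fold enrichment (-log10 q 9.89). Its fold enrichment was the lowest value of the ninth of the 10 classes of library 1 peaks cut at the deciles of fold enrichment, from low to high. In that class 55.6% of peaks overlapped a library 2 peak, and in the class beneath it 32.0% did. The enhancer thus had a call in 1 library and none in the other.

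Lep (NCBI gene 16846, chr6:29060221-29073876, plus strand) encodes leptin, the satiety hormone. Lep was the emptiest locus of the 10: no peak of either library lay within 100 kb. The nearest library 1 peak was 104 kb away and the nearest region 158 kb away, at Impdh1, an enzyme gene of guanine nucleotide synthesis. RefSeq annotates promoter fragments and binding sites for Sp1, C/EBP and AP-2 at the Lep TSS, and no peak of either library overlapped them. The Lep promoter held TTGCGCAA, a C/EBP match, from -55 bases, where RefSeq places its C/EBP site. A C/EBP match was found in 10.9% of all 32619 RefSeq promoter windows of 300 bases.

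Cfd (NCBI gene 11537, chr10:79890853-79892655, plus strand) encodes adipsin, the complement factor D. No peak had the Cfd TSS as its nearest. A library 1 peak of fold enrichment 5.04 lay 6.98 kb away and was nearest to Elane, the neutrophil elastase gene, whose TSS is 4.54 kb from that of Cfd. The nearest region was 18.4 kb away, at the TSS of Med16, a subunit gene of the Mediator complex. It had fold enrichment of 14.5 in library 1 and 3.97 in library 2, an uneven pair. Within 50 kb of Cfd lay 5 regions, 18 library 1 peaks and 6 library 2 peaks, all nearest to other genes.

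Among the transporters and receptors of the fat cell surface, a peak was found at Slc2a4 only. Slc2a4 (NCBI gene 20528, chr11:69942286-69948197, minus strand) encodes GLUT4, the insulin-responsive glucose transporter. Its library 1 peak, chr11:69949037-69949183, was 147 bp wide, lay at -0.913 kb and had fold enrichment 5.63 (-log10 q 8.12). It was the peak closest to a TSS at any of the 10 genes. In its class of fold enrichment 32.0% of library 1 peaks overlapped a library 2 peak, and the nearest library 2 summit to it was 17.9 kb away. Slc2a4 sits in a stretch of dense binding, with 31 library 1 peaks, 14 library 2 peaks and 10 regions within 50 kb. The nearest of those regions, 17.0 kb from the Slc2a4 TSS, ranked 134 of 20233 with fold enrichment of 19.5 in library 1 and 14.0 in library 2. It was assigned to Ybx2, a germ cell gene of the Y-box family, and lay at -4.70 kb from the Ybx2 TSS.

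Adrb3 (NCBI gene 11556, chr8:27225776-27229588, minus strand) encodes the β3-adrenergic receptor, which starts lipolysis in fat cells. No peak had it as the nearest gene. The closest library 1 peak, with fold enrichment 4.44, was 30.5 kb away, and the closest region 31.4 kb away. Both belonged to Eif4ebp1, which encodes a repressor of translation, and the region had fold enrichment of 8.29 in library 1 and 4.52 in library 2. Around Adrb3, 1 region lay within 50 kb and 7 within 100 kb.

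Aqp7 (NCBI gene 11832, chr4:41033074-41048136, minus strand) encodes the channel by which glycerol leaves fat cells. No peak of either library lay within 50 kb of its TSS. The nearest region was 76.5 kb away, at the TSS of Nol6, a gene of ribosome assembly, with fold enrichment of 9.18 in library 1 and 5.57 in library 2. Aqp7 was nevertheless the only gene with a DR1-like match in its promoter among the 8 genes that had a RefSeq promoter window, running from 250 bases before to 50 bases after the TSS. Slc2a4 and Adrb3 had no such window. Of all 32619 windows 3.89% held such a match, 0.558% with at most 1 mismatch. The Aqp7 match is shown because it is one of 2 DR1-like matches found in these promoters, both at Aqp7, and it had no peak. The sequence is RefSeq's for GRCm38, chr4:41048137-41048286, printed along the minus strand up to the base before the upstream TSS, with the match in capitals. Read on the other strand the match is AGGTCAGAGGTGG, with 2 mismatches, at -56 bases.
Aqp7 promoter: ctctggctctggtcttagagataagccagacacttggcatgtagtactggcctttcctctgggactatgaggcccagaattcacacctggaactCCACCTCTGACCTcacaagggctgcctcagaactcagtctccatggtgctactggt

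A further DR1-like match, AGGGGAGAGGTCA, lay at -101 bases from the other Aqp7 TSS. Both carried a complete half-site AGGTCA, which 16.2% of all promoter windows held. Widening the window to 1000 bases on each side added Pck1, with 2 mismatches at -450 bases, and Thrsp, with 1 mismatch at +837 bases. The wider window thus held a match at 3 of 8 genes, against 24.8% of the 26794 genes with a RefSeq promoter, and with at most 1 mismatch at 1 of 8, against 3.62%. None of these promoter matches was covered by a peak of either library.

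Pck1 (NCBI gene 18534, chr2:173153073-173159274, plus strand) encodes the cytosolic PEPCK, an enzyme of the pathway to glycerol phosphate for triglyceride in fat cells. It had 1 library 1 peak, chr2:173173075-173173318, downstream of the gene at +20.1 kb, and no library 2 peak. The fold enrichment was 4.74 (-log10 q 5.66), in a class where 15.0% of library 1 peaks overlapped a library 2 peak. The nearest library 2 summit was 99.0 kb away. The nearest region was 119 kb away, in an intron of Pmepa1, an inhibitor gene of TGFβ signalling. The Pck1 peak had a complete half-site 73 bp from its summit, as did 12.8% of library 1 peaks within 100 bp. The part of the peak from 40 bp before the summit to its end is shown for that half-site, in capitals, on the plus strand of GRCm38, chr2:173173200-173173318.
Pck1 library 1 peak: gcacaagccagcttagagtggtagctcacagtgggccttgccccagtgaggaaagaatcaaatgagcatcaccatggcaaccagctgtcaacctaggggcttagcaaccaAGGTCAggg

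Thrsp (NCBI gene 21835, chr7:97412933-97417550, minus strand) encodes Spot 14, a nuclear regulator of fatty acid synthesis. It had no peak of its own. The nearest region lay 17.6 kb away on the TSS of Ndufc2, a subunit gene of respiratory complex I, with fold enrichment of 3.82 in library 1 and 6.19 in library 2. Adig (NCBI gene 246747, chr2:158502612-158508198, plus strand) encodes adipogenin, a small membrane protein of fat cell lipid droplets. It was the gene farthest from a region, at 327 kb. That region was assigned to Tgm2, a transglutaminase gene, and lay at -29.1 kb from the Tgm2 TSS. It had fold enrichment of 28.4 in library 1 and 8.70 in library 2. The closest single-library peaks to Adig were 84.1 kb away in library 1 and 96.6 kb away in library 2, both nearest to Ralgapb. The Adig promoter held a half-site at -154 bases and no DR1-like match.

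The distance to a region, whatever gene it was assigned to, put the 10 genes in the following order. It was 3.54 kb for Retn, 17.0 kb for Slc2a4, 17.6 kb for Thrsp, 18.4 kb for Cfd, 31.4 kb for Adrb3 and 34.7 kb for Adipoq. Aqp7 followed with 76.5 kb, Pck1 with 119 kb, Lep with 158 kb and Adig with 327 kb. The median over the 10 genes was 33.1 kb, against 49.1 kb over all genes. For the nearest library 1 peak it was 18.9 kb, against 4.71 kb over all genes, and for the nearest library 2 peak 31.3 kb, against 42.2 kb. A region lay within 10 kb of 1 of 10 genes, against 30.3% of all genes, and within 50 kb of 6 of 10, against 50.3%. At 10 kb the count of 1 was therefore below the share over all genes, and at 50 kb the count of 6 was close to it.

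**Figure D3:**
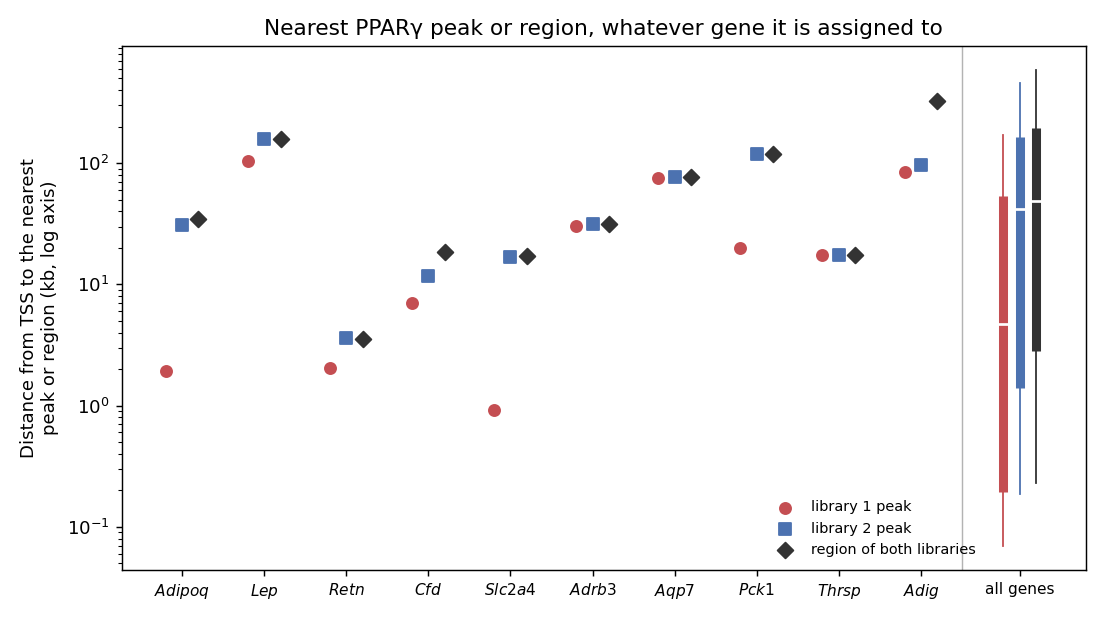
Distance from the TSS of each of the 10 genes to the nearest library 1 peak (circles), library 2 peak (squares) and region of both libraries (diamonds), in kb on a log axis. On the right, thick bars span the middle 50% of all 20923 genes, thin lines the 10th to 90th percentile and white marks the medians (4.71, 42.2 and 49.1 kb).

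The 11 library 1 peaks at the 10 genes that library 2 lacked had fold enrichments between 3.12 and 7.70. Of the 15 library 1 peaks at the 10 genes, 4 overlapped a library 2 peak, against 26.9% of all library 1 peaks. All 3 library 2 peaks overlapped library 1, against 82.9% of all library 2 peaks. Across all library 1 peaks the overlapped share was 11.0% in the lowest of these 10 classes of fold enrichment and 89.4% in the highest. Both library 1 peaks of the 10 genes in that highest class, the pair in the upstream Retn region, were overlapped. Of the 13 others, 2 were overlapped, both in the Retn intron. In the classes below the highest, the overlapped share of all library 1 peaks ran from 8.97% to 55.6%.

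**Figure D4:**
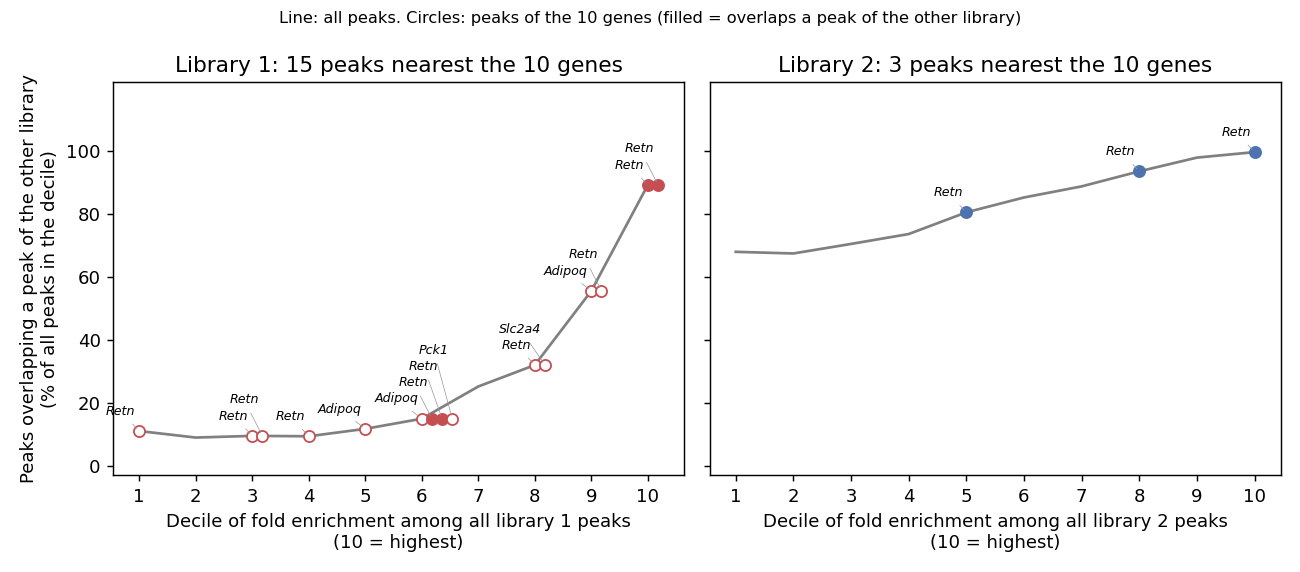
Share of peaks overlapped by the other library (y axis, %) against the decile of fold enrichment (x axis) for all peaks (line), with the peaks of the 10 genes as circles at their decile, set side by side where several share one. Filled circles overlapped a peak of the other library; in library 1 these are 4 Retn peaks, and the Adipoq, Slc2a4 and Pck1 circles are open.

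Other gene lists show what the same peak lists held elsewhere. Of 20 further genes of fat cell lipid storage and synthesis, 9 held a region, 17 a library 1 peak and 10 a library 2 peak. These were 45%, 85% and 50% of the list, against 31.6%, 60.6% and 34.9% of all protein-coding genes. The best placed were Lpin1, a phosphatidate phosphatase (rank 35), and Cebpa, a transcription factor of fat and myeloid cells (rank 950). The lipase genes Pnpla2 and Lipe, the triglyceride synthase gene Dgat2, Gpd1, Scd1 and Elovl3 followed. Those without a region included Fasn and Acaca, of fatty acid synthesis, and Acvr1c, Agpat2, Cidea and Mest. Each of these but Agpat2 held a library 1 peak, and Acvr1c also held a library 2 peak that did not overlap one of library 1. Among these named genes, the nearest library 1 peaks lay 0.076 kb from the TSS at Fasn, 0.37 kb at Cidea and 0.731 kb at Acvr1c. Of 10 PPAR targets used by fat cells and macrophages alike, all 10 held a region, against 31.6% of all genes. They held 82 regions in all, with a median distance of 0.593 kb from the TSS to the nearest. They were led by Plin2, of the lipid droplet coat, at rank 19, then the fatty acid receptor gene Cd36 at rank 127 and the cholesterol exporter gene Abcg1 at rank 147. Pdk4, Cidec, Lpl, Angptl4 and Acsl1 stood next. The upstream Retn region, at rank 305, stood between the best region of Abcg1 and that of Pdk4, at rank 489. These lists were chosen with earlier results of the same data known, so the contrast of 1 of 10 with 10 of 10 is a description of chosen genes.

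**Figure D5:**
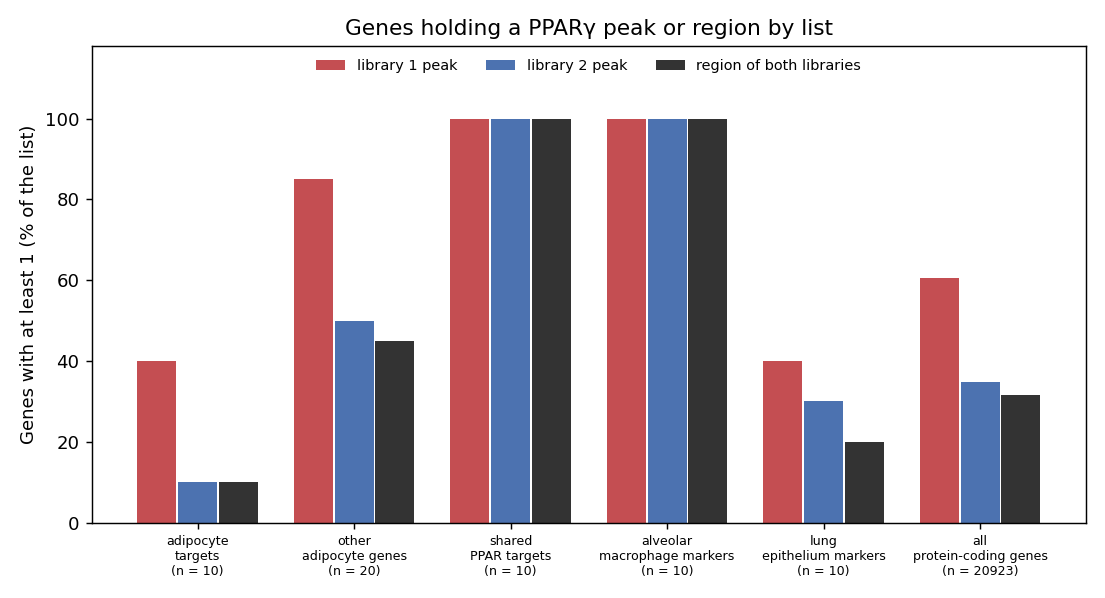
Percentage of genes with at least 1 library 1 peak (red), library 2 peak (blue) or region of both libraries (black) in the 10 adipocyte targets and 4 other lists, with all 20923 protein-coding genes on the right. The adipocyte targets stand at 40%, 10% and 10%, and all genes at 60.6%, 34.9% and 31.6%.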

How the data were processed

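PPARγ HT-ChIPmentation was done on sorted AMs. Per the labels and the study's methods, the authors demultiplexed reads (bcl2fastq 2.20.0.422, CASAVA), trimmed them (cutadapt), aligned them to mm10 (Bowtie2), filtered them (SAMtools) and called peaks of each PPARγ library against input with MACS3 at a q-value of 0.05; replicates were not pooled. The deposited values are the fold enrichment over input (a ratio), the -log10 p- and q-value at the summit, and a whole-number score derived from the -log10 q-value, which was not used. Library 1 listed 83787 peaks and library 2 listed 28535. Reads and input signal were not analysed here.

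Positions were made 1-based. Peaks overlapping by at least 1 bp were merged, regions with peaks of both libraries were kept, and each was assigned to the nearest protein-coding TSS of curated RefSeq transcripts (GRCm38.p6). Distances run from the TSS to the peak or region centre, negative upstream. Promoters came from RefSeq, matched by symbol for 8 of 10 genes. Motifs were searched on both strands. Python 3.11.15, pandas 2.3.3, numpy 2.4.6 and matplotlib 3.10.9 were used. Merging, assignment to the nearest TSS, stretch lengths and the DR1 search were tested on simulated data, and the other steps were not. Named were all 10 genes, the genes of their nearest regions, adjoining genes, and from each list up to 8 genes with a region by rank and up to 6 without one in alphabetical order. The 10 genes and all lists were chosen with earlier results of these data known. Alternatives for overlap, q-value, fold enrichment, list length, annotation, distance and motif mismatches were tried.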

Additional observations from a re-analysis of the deposited data

How the results depend on the processing

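Of 65 results under alternative settings, 48 stayed within 1.5 times the value given (for the median distance, within the SD of 8.81 kb between single libraries) and 17 did not. That SD came from only 2 medians, which were themselves among the alternatives, so it is a rough limit. Retn was the only one of the 10 genes with a region under every alternative of overlap, q-value, fold enrichment, list length and annotation. Counting any region within 50 kb gave 6 genes with 27 regions, and within 10 kb 4 regions, all near Retn. The count of regions at the 10 genes was 1 with a reciprocal overlap of 50% and 1 with a fold enrichment of at least 5. With single libraries (without library 1 or without library 2), genes with binding numbered 1 to 4, peaks 3 to 15, the median distance 18.9 to 31.3 kb and the other adipocyte genes 10 to 17. The median distance was 48.6 kb with summits at most 100 bp apart, 58.0 kb with a fold enrichment of at least 5 and 51.3 kb with library 1 shortened to the length of library 2. These settings kept fewer regions genome-wide, and the median over all genes was not computed under them. The other adipocyte genes with a region numbered 5 of 20 with a reciprocal overlap of 50%, against 22.4% of all genes. Within 50 kb they numbered 15 of 20, against 50.3% of all genes. Promoters with a DR1-like match numbered 0 as an exact match, 0 with at most 1 mismatch and 3 of 8 in the wider window, where 24.8% of all genes had one. The causes were not tested, apart from fewer or more peaks entering by construction. Peaks that fell under the authors' q-value threshold in library 2 cannot be told from absent binding in a list of called peaks. No paired analysis was possible because input libraries had no peak list of their own and no test between groups was made.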
